A study of Homo sapiens with 18 samples.

Results

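CLU encodes clusterin, also called apolipoprotein J, a secreted glycoprotein of epithelia. It is 1 of 23604 genes listed in the RNA-Seq tables, and it was chosen by its own RNA levels in these libraries, which were low in transformed cells and raised by triptolide (TPL). Its RNA levels are therefore given here as a description with no test. The gene was followed through the 8 RNA-Seq libraries by its gene identifier and through the 4 RNA polymerase II (RNAPII) peak lists by the peak over its transcription start site (TSS).

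The cells were MCF10A-Er-Src, a human breast epithelial line in which the v-Src oncoprotein is fused to a part of the oestrogen receptor and is switched on by tamoxifen. All groups carry this fusion. NT cells were not given tamoxifen and TAM cells were transformed with it, and both were incubated with DMSO or with TPL (TPL-125nM in the labels) for 4 h. The 4 groups, NT, NT + TPL, TAM and TAM + TPL, had 2 RNA-Seq libraries each. A single engineered line was used, and the methods of the study describe the 2 libraries of a group as independent biological replicates.

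Clusterin folds and is cut into 2 chains in the secretory path, and outside the cell it acts as a chaperone that holds misfolded proteins in solution. It binds lipids, blocks the terminal complement complex and is taken up through lipoprotein receptors, and forms kept within the cell have been described to bind BAX and Ku70, proteins of apoptosis and DNA repair. It is known as a stress-induced gene in epithelia, the breast included. TPL is a plant diterpenoid that binds XPB, a subunit of the general transcription factor TFIIH, and stops transcription from starting.

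In the hg19 build the canonical transcript of CLU lies on the minus strand at chr8:27454434-27472217, with 9 exons over 17784 bp and the TSS at position 27472217. Exon 1 has 46 bp and intron 1 has 4054 bp. No other annotated gene overlaps it. The nearest protein-coding gene to one side is SCARA3, 19.2 kb away, and that on the other side is EPHX2, 51.4 kb away. The RNA tables hold 1 CLU entry, made from 1 coding and 2 noncoding transcripts, so its isoforms cannot be told apart.

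The 8 RNA-Seq libraries held 7461309 to 8349448 expected counts on genes and listed 18485 to 20156 genes. The keratins and TP63 that mark basal breast epithelium summed to 3470 to 18300 FPKM (fragments per kilobase of transcript, scaled to the mapped reads), and the 5 luminal markers to 609 to 954 FPKM. Markers of fibroblasts, leucocytes, endothelium and adipocytes summed to at most 12.9, 19.9, 1.73 and 2.88 FPKM, and CDH5, which defines endothelium, was in no library. The summed basal markers had means of 17300 FPKM in NT cells and 11500 with TPL added, and 7320 FPKM in TAM cells and 3650 with TPL added. The members differed. With DMSO, KRT5 had means of 6010 FPKM in NT and 1310 in TAM cells, KRT17 6710 and 1480, and KRT14 552 and 163. The other 2 of the 5 went the other way, KRT6A with 4040 and 4340 and TP63 with 18.4 and 23.6. The part of these markers in the CLU levels was not tested. In such bulk libraries fewer cells with a transcript and less of it per cell cannot be told apart, and FPKM gives a share of a library, so a change in the total RNA of a cell cannot be seen in it.

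CLU was at 56.36 and 51.98 FPKM in the 2 NT libraries and at 213.91 and 163.13 FPKM in the 2 NT + TPL libraries. It was at 4.80 and 3.73 FPKM in TAM and at 57.08 and 37.83 FPKM in TAM + TPL. Both TAM libraries were below every other library, both NT + TPL libraries were above every other one, and the NT and TAM + TPL libraries overlapped. The group means in NT cells were 54.2 ± 3.10 FPKM with DMSO and 189 ± 35.9 with TPL, and those in TAM cells 4.26 ± 0.757 with DMSO and 47.5 ± 13.6 with TPL (SD, n = 2). The order was thus NT + TPL, then NT and TAM + TPL without a difference beyond their spread, then TAM.

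**Figure D1:**
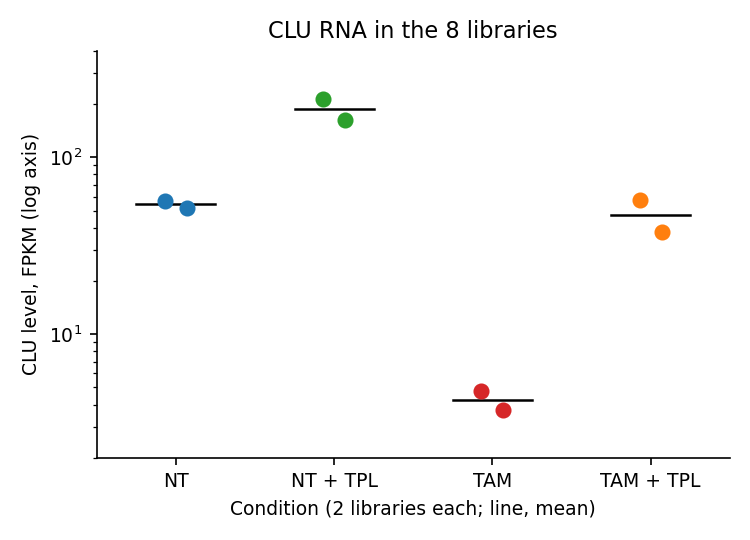
CLU level in FPKM (vertical, log axis) in the 4 conditions, each point 1 library and each line the mean of 2. The TAM libraries lie at 3.73 and 4.80 FPKM, the TAM + TPL libraries lie around those of NT, and the NT + TPL libraries reach 163.13 and 213.91 FPKM.

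The TAM values rest on 116 and 90 expected counts, against 1324 and 1219 in NT cells, 4757 and 3578 once TPL was added to these, and 1237 and 895 once it was added to TAM cells. In NT cells CLU was above 93.1% to 93.4% of the genes listed, and in NT + TPL above 97.9% to 98.4%. In TAM cells it was above 49.3% to 53.9%, a middle rank, and in TAM + TPL above 92.1% to 94.8%. CLU thus moved between the middle and the top of the listed genes, by rank as well as by level.

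The mean was 12.7 times higher in NT than in TAM, and between single libraries this ratio lay from 10.8 to 15.1. With TPL it was 11.1 times higher in TAM cells (7.88 to 15.3 between libraries) and 3.48 times higher in NT cells (2.89 to 4.12). The mean in TAM + TPL was 0.876 of that in NT, with library ratios from 0.671 to 1.10. Among TPL libraries NT cells stayed 3.97 times above TAM cells (2.86 to 5.65). As a ratio, the gap between the cell states was thus narrower with TPL than with DMSO in every pairing of libraries. In FPKM the means of NT and TAM cells lay further apart with TPL (189 and 47.5) than with DMSO (54.2 and 4.26).

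Fitted across all genes with edgeR on the expected counts, the log2 fold change of CLU was -3.65 (SE 0.264) for TAM against NT with DMSO and -2.01 (SE 0.236) with TPL. It was 1.79 (SE 0.234) for TPL in NT cells and 3.43 (SE 0.262) for TPL in TAM cells, and these 2 values differ by 1.64 (SE 0.338). Of 16948 genes tested, 98.3% were less far down in TAM against NT, 95.9% less far up with TPL in TAM cells and 90.3% less far up with TPL in NT cells. The medians over all genes tested were -0.03, 0.05 and 0.09 in the same order, so the values of CLU are far from the bulk of genes on the log2 scale. The TPL comparison in TAM cells and the TAM against NT comparison share the 2 TAM libraries, in which CLU was low.

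A gene was called where the adjusted p was at most 0.001 and the log2 fold change at least 1.2 in size, the thresholds of the study. By these, 47 genes were lower in TAM than in NT cells (0.277% of those tested). Of them, 3 also rose with TPL in TAM cells (0.844% of all genes did) and 0 rose in NT cells as well (1.22% of all genes did). At an adjusted p of 0.05 the 3 counts were 398 (2.35%), 64 and 26, where 9.05% of all genes rose with TPL in TAM cells and 9.78% in NT cells. By size of fold alone the 3 counts were 1319, 622 and 259, for which the shares of all genes are not given. The counts share libraries, as above, and nothing is read from their overlap. By size alone 25 genes with a mean of at least 5 FPKM met all 3, CLU among them by the way it was chosen. With a mean of at least 20 FPKM, those that met all 3 by size alone were CLU and 3 other genes, WBP1, TUFT1 and ID2, picked after their values were seen. CLU had the highest mean of them, at 73.6 FPKM over the 8 libraries.

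ID2, an inhibitor of basic helix-loop-helix transcription factors, had the pattern nearest in size to that of CLU among the 6 transcripts of the RT-PCR list. It was at 16.47 and 19.42 FPKM in NT cells with DMSO and 46.48 and 49.68 with TPL, and at 3.01 and 1.98 in TAM cells with DMSO and 33.18 and 33.07 with TPL. The 4 groups did not overlap, and TAM + TPL was above NT, where for CLU these groups overlapped. Its log2 fold change was -2.83 (SE 0.224) for TAM against NT, 3.68 (SE 0.226) for TPL in TAM cells and 1.42 (SE 0.193) for TPL in NT cells. Against CLU, ID2 thus had a smaller difference between the cell states and about the same difference with TPL in TAM cells. ID2 had a listed peak in all 4 RNAPII lists, unlike CLU.

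The RNAPII lists give the peaks that contain a TSS, with start and end and with no height or score. The lists of NT cells hold 11222 peaks with DMSO and 8653 with TPL, and those of TAM cells 11056 and 8464. The peak names carry 1 sample prefix each, and those of the TAM list carry a setting of q 0.1 where the others carry a cutoff of 0.02. How the peak settings bear on the lists was not tested, and without scores the lists have no replicate error.

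A peak over the CLU TSS was listed for NT, NT + TPL and TAM + TPL, and none was listed for TAM. The NT peak was chr8:27472073-27472346, 274 bp wide, and reached 129 bp upstream of the TSS and 144 bp into the gene. The NT + TPL peak was chr8:27472002-27472407, 406 bp wide, with 190 bp upstream and 215 bp downstream. The TAM + TPL peak was chr8:27472024-27472366, 343 bp wide, with 149 bp upstream and 193 bp downstream. Each of the 3 was centred near the TSS and covered all of exon 1 and the start of intron 1. In the TAM list the nearest peak was 123.3 kb away, and none lay within 1 kb of the TSS.

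**Figure D2:**
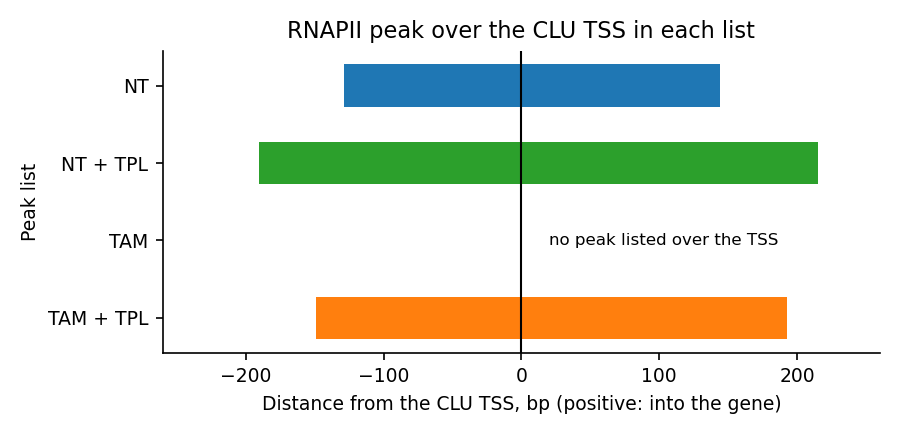
Extent of the RNAPII peak over the CLU TSS (horizontal, bp from the TSS, positive into the gene) in each of the 4 lists (vertical). NT, NT + TPL and TAM + TPL have a peak of 274, 406 and 343 bp around the TSS, and the TAM list has none there.

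Each of the 3 CLU peaks contained 6 of the 15 annotated CLU start sites, all of them close together, so the lists do not separate them. The NT peak was narrow for its list, wider than 12.1% of the peaks, and the NT + TPL and TAM + TPL peaks were wider than 32.9% and 33.6% of theirs. The width with TPL was 1.48 times that of NT in NT cells, where the median over 7313 protein-coding TSSs with a peak in both lists was 0.877 and 88.2% of them had a smaller ratio. Against NT the TAM + TPL peak was 1.25 times as wide, against a median of 0.732 over 7194 TSSs, and 91.3% were below. Against NT + TPL it was 0.845 times as wide, near the median of 0.860. The CLU peak was thus wider with TPL than in NT while most TSS peaks were narrower. Its ratios were not set against those of peaks as narrow in NT. CLU was chosen for RNA that rose with TPL, so the widths are a description only.

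Among 19812 protein-coding TSSs, 9482 had a listed peak in NT cells and 7597 once TPL was added, and 8361 had one in TAM cells and 7425 once TPL was added. Of those with a peak in NT, 1400 (14.8%) had none in TAM, and 518 of these (37%) had one in TAM + TPL. The combination of CLU, with a peak in every list but that of TAM, was found at 450 TSSs (2.27%), and 15 of the 697 TSSs on chromosome 8 had it. CLU therefore has a combination that is uncommon but is shared with many other genes.

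The RNA of the genes with this combination is given as a description. Over the 427 of them tested, the median log2 fold change was 0.02 for TAM against NT and -0.16 for TPL in TAM cells, and 42.6% had a value above 0 in the latter. Over 5981 tested genes with a peak in all 4 lists the medians were 0.02 and -0.18, with 40.8% above 0. The medians of the genes with these combinations thus lay close together.

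The neighbours of CLU were described next, as 12 protein-coding genes have their TSS within 500 kb. STMN4, CHRNA2 and SCARA5 were too low to be tested, which left 9. Counts at an unadjusted p under 0.05 and counts by DESeq2 at the same thresholds are given beside edgeR calls of 0. Over all genes, the unadjusted p was under 0.05 in 47.8% with TPL in NT cells (23.7% higher, 24.1% lower), 45.1% in TAM cells (21.0% higher, 24.0% lower) and 19.9% for TAM against NT. DESeq2 called 13.5% of genes with TPL in NT cells (4.98% higher, 8.57% lower), 12.2% in TAM cells (4.65% higher, 7.56% lower) and 4.29% for TAM against NT. With TPL, 1 of the 9 fell in NT cells and 0 rose by edgeR (4 at an unadjusted p under 0.05 and 0 by DESeq2), where 2.71% of all genes fell and 1.22% rose. In TAM cells edgeR called 0 of 9 (2.04% of all genes fell and 0.844% rose), with 3 at an unadjusted p under 0.05 and 1 by DESeq2. For TAM against NT edgeR also called 0 (0.277% of all genes were lower and 0.378% higher). There 6 had an unadjusted p under 0.05, 3 higher and 3 lower, and DESeq2 called 2. With so few genes, counts of 0 or 1 are near what these shares give, and nothing is read from them. The 6 and the 2 of 9 for TAM against NT were above the shares of 19.9% and 4.29%, and this was not tested. PTK2B and SCARA3 were the 2 called lower in TAM cells by DESeq2.

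SCARA3, a scavenger receptor gene and the nearest neighbour, was at 2.66 and 3.40 FPKM in NT and at 5.49 and 3.33 in NT + TPL. It was at 0.16 and 0.49 FPKM in TAM and at 0.47 and 0.32 in TAM + TPL. Both TAM groups lay below both NT groups, and the TAM groups overlapped each other. The log2 fold change of SCARA3 was -3.25 (SE 0.566, edgeR adjusted p = 0.0185) for TAM against NT, close in size to that of CLU, and 0.20 (SE 0.582, adjusted p = 0.815) for TPL in TAM cells, where CLU had 3.43. SCARA3 had no listed RNAPII peak in any list.

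PTK2B, which encodes the tyrosine kinase PYK2, was at 26.65 and 29.12 FPKM in NT cells with DMSO and 53.73 and 47.64 with TPL, and at 11.47 and 10.39 in TAM cells with DMSO and 21.84 and 18.76 with TPL. The groups did not overlap, and their order was that of CLU apart from TAM + TPL lying below NT. Its log2 fold change was -1.33 (SE 0.141, edgeR adjusted p = 0.00262) for TAM against NT, and 0.86 (SE 0.137, adjusted p = 0.00400) and 0.85 (SE 0.140, adjusted p = 0.00522) for TPL in NT and TAM cells. These values did not reach the thresholds. EPHX2, a soluble epoxide hydrolase, was at 3.36 and 3.08 FPKM in NT cells with DMSO and 8.57 and 4.78 with TPL, and at 1.07 and 1.18 in TAM cells with DMSO and 2.13 and 2.59 with TPL. Its order was the same as for PTK2B, and EPHX2 had -1.52 on the log2 scale (SE 0.353, adjusted p = 0.0514) for TAM against NT.

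TRIM35, a tripartite motif protein whose gene starts close to PTK2B on the other strand, was at 11 and 14.17 FPKM in NT and 2.46 and 1.23 in NT + TPL. In TAM it was at 9.01 and 10.03 FPKM and in TAM + TPL at 1.47 and 1.4. It fell with TPL in NT cells by 2.78 on the log2 scale (SE 0.301, edgeR adjusted p = 0.000971), and this call was lost under 3 of the other scalings. In TAM cells the value was -2.79 (SE 0.306, adjusted p = 0.00116). Of the other tested neighbours, ESCO2 and PBK had log2 fold changes of 2.37 and 1.25 for TAM against NT, and CCDC25, NUGGC and ELP3 of 0.47, -0.18 and -0.04. None of these 5 was called, and with TPL in TAM cells their values lay from -0.46 for ELP3 to 1.28 for ESCO2. ESCO2 had only 1.04 and 5.84 expected counts in the NT libraries.

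**Figure D3:**
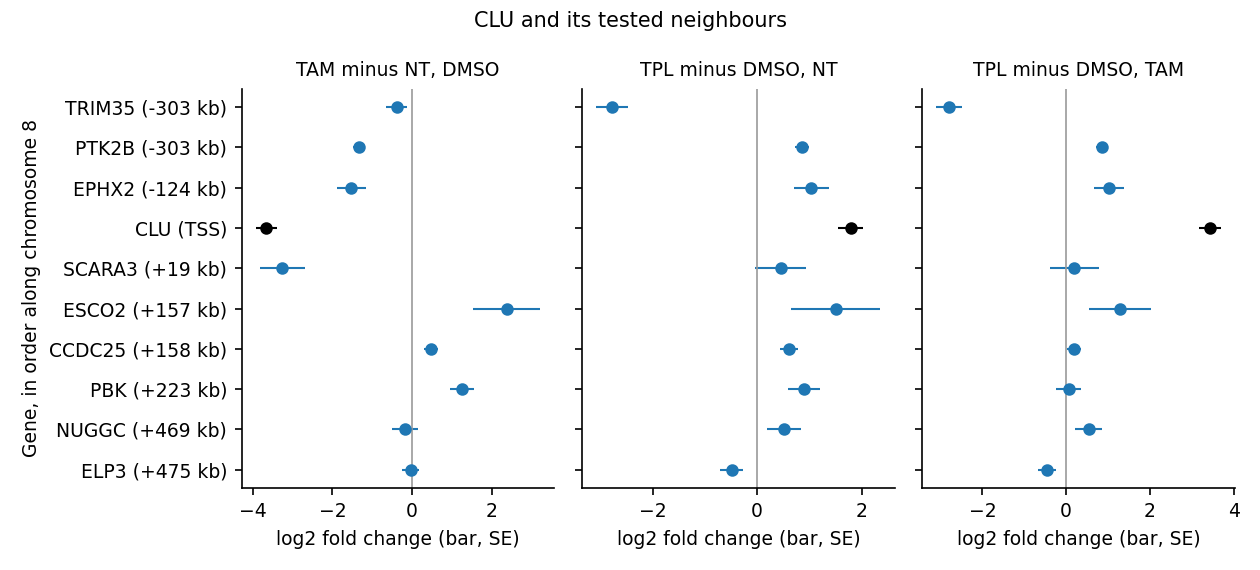
Log2 fold change (horizontal, bars 1 SE) of CLU (black) and its 9 tested neighbours (blue) in 3 comparisons, with the genes in order along the chromosome (vertical, distance between TSSs in kb). CLU and SCARA3 lie at -3.65 and -3.25 in TAM against NT, and in TAM cells with TPL CLU lies at 3.43 and SCARA3 at 0.20. SCARA3 rests on 5 and 14 expected counts in TAM.

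Of the 12 neighbours, PTK2B, CCDC25 and ELP3 had a TSS peak in all 4 lists, TRIM35 in all but NT + TPL, and EPHX2 only with DMSO. ESCO2 and PBK had a peak only in the 2 NT lists, and STMN4, CHRNA2, SCARA3, SCARA5 and NUGGC in none. No neighbour had the combination of CLU.

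The genes whose levels followed CLU most closely were named by Pearson's r of log2(FPKM + 1) over the 8 libraries, among 3724 genes with a mean of at least 5 FPKM and a range of group means of at least 1. The median r was -0.30. F11R (junctional adhesion molecule A) had an r of 0.983, NLGN2 (neuroligin-2) 0.982 and PNPLA2 (the triglyceride lipase ATGL) 0.978. GSTA4, a glutathione transferase, followed with 0.974, SELENBP1, a selenium-binding protein, with 0.971 and the adhesion molecule ALCAM with 0.969. RABGEF1 and the neighbour PTK2B had 0.967 and the channel gene TPCN1 0.962, with the next gene at 0.961, so the list has no sharp end. The 8 points come from 4 groups and share libraries and depth, so r is a description only. By Spearman's rho, 478 genes were at or above the lowest of the 10. The size of a change does not enter r. F11R had log2 fold changes of 0.39 and 0.76 with TPL in NT and TAM cells and -0.74 for TAM against NT. Those of CLU were 1.79, 3.43 and -3.65.

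In all 10 the NT + TPL libraries lay above and the TAM libraries below those of every other group, as for CLU. The 10 were picked by r with CLU over these same libraries, so this order follows from the choice and is no separate result. The TAM + TPL libraries overlapped those of NT in 3 of the 10, as for CLU, and lay below them in 6 and above them in 1. PNPLA2, the highest of them, was at 110.14 and 90.64 FPKM in NT cells, at 207.10 and 157.28 once TPL was added to these, at 30.07 and 30.58 in TAM cells, and at 76.46 and 62.95 once TPL was added to those. SELENBP1 had means of 10.6, 29.9, 1.94 and 6.90 FPKM in the same order, and F11R 36.9, 48.7, 21.8 and 38.2. Of the 10, 6 had a listed TSS peak in all 4 lists, and none had the combination of CLU. PNPLA2 and SELENBP1 had a TSS peak only in the NT + TPL list.

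**Figure D4:**
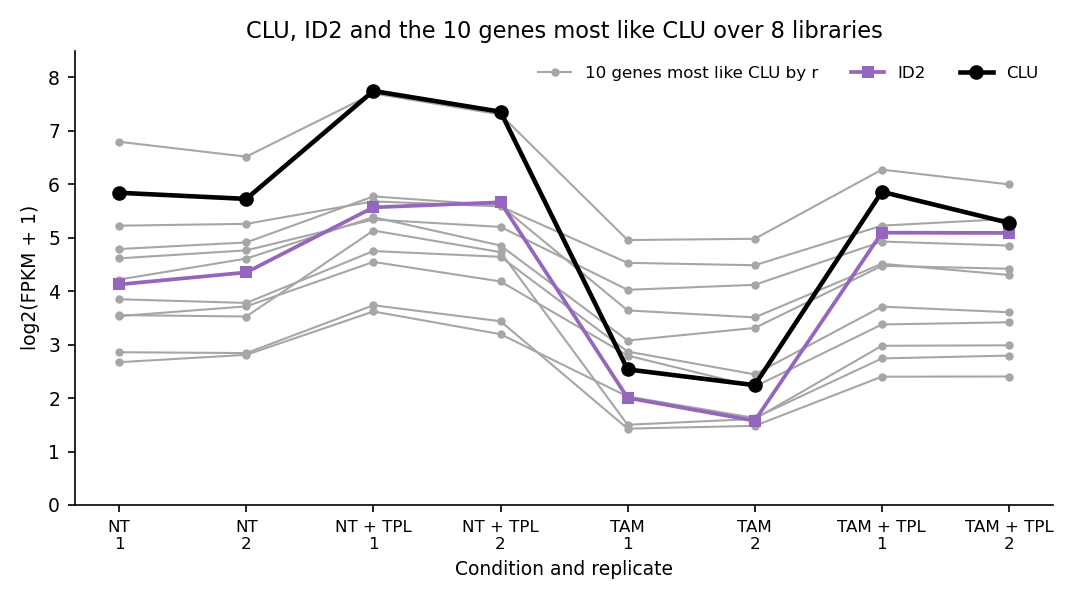
Level as log2(FPKM + 1) (vertical) in each of the 8 libraries (horizontal) of CLU (black), ID2 (purple) and the 10 genes with the highest r with CLU (grey, r from 0.962 to 0.983). CLU spans a wider range than each of the grey genes.

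Other genes of clusterin biology were described by lists. Of 18 transcription factors reported to act on the CLU promoter, all were tested, 3 fell with TPL in NT cells (MYC, FOS and JUN) and 2 in TAM cells (FOS and JUN), and 0 rose in either by edgeR or DESeq2 (2 in NT and 1 in TAM cells at an unadjusted p under 0.05, against 23.7% and 21.0% of all genes). Over all genes edgeR called 2.71% and 2.04% lower and 1.22% and 0.844% higher, and DESeq2 called 4.98% and 4.65% higher. The median log2 fold change of the list was -0.84 in NT and -0.59 in TAM cells, against 0.09 and 0.05 over all genes. MYC was at 532.07 and 622.70 FPKM in NT cells with DMSO and 26.77 and 15.04 with TPL, and at 154.18 and 148.16 in TAM cells with DMSO and 33.99 and 36.26 with TPL. MYC fell with TPL in NT cells by 4.80 on the log2 scale (SE 0.270, edgeR adjusted p = 0.000195), and FOS, an AP-1 subunit, fell by 4.17 (SE 0.198, adjusted p = 0.000178) in NT and fell by 4.42 (SE 0.201, adjusted p = 0.000234) in TAM cells. JUN, its partner, fell by 2.88 (SE 0.216, adjusted p = 0.000342) and fell by 3.04 (SE 0.217, adjusted p = 0.000367). The groups with TPL lay below those with DMSO for MYC, FOS and JUN in both cell states, the reverse of CLU.

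EGR1, an early response factor, had log2 fold changes of -1.78 and -0.74 with TPL in NT and TAM cells, and YBX1, which the tables split over 2 entries, 0.27 and 0.22. For TAM against NT edgeR called 0 of the 18, with 6 at an unadjusted p under 0.05 (19.9% of all genes) and 4 by DESeq2 (4.29%). MYC, at -1.92 (adjusted p = 0.00480), was the nearest to the thresholds of those named.

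Among 16 genes of apoptosis and of the Ku dimer, 1 rose with TPL in both cell states and 0 fell by edgeR, where 1.22% and 0.844% of all genes rose. At an unadjusted p under 0.05, 5 were lower in NT and 6 in TAM cells, against 24.1% and 24.0% of all genes, and DESeq2 called 2 lower in each (8.57% and 7.56%). PMAIP1, which encodes the BH3-only protein NOXA, was at 7.69 and 7.77 FPKM in NT cells with DMSO and 55.02 and 60.37 with TPL, and at 20.25 and 22.20 in TAM cells with DMSO and 57.64 and 61.58 with TPL. It rose by 2.89 (SE 0.148, edgeR adjusted p = 0.000192) in NT and 1.44 (SE 0.138, adjusted p = 0.000736) in TAM cells on the log2 scale. With DMSO PMAIP1 was higher in TAM than in NT libraries, where CLU was lower, and with TPL the PMAIP1 libraries of NT and TAM cells overlapped. MCL1, a survival protein, had log2 fold changes of -0.57 and -0.81 with TPL, XRCC6 (Ku70) 0.22 and 0.11, XRCC5 (Ku80) -0.38 and -0.41, and CYCS (cytochrome c) 0.16 and 0.37. BAX, named for its tie to clusterin and not by level, had -0.29 and -0.79. For TAM against NT edgeR called 0 of 16, with 5 at an unadjusted p under 0.05 (19.9% of all genes) and 1 by DESeq2 (4.29%).

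Of 16 genes listed for the terminal complement and its regulators, 12 were tested. The entry taken for C6 has gene ID 5688, that of the proteasome gene PSMA7, which shares the alias C6. It is not a complement gene, and the counts and medians of this list include it. CD55, a membrane inhibitor of complement, was at 76.71 and 81.24 FPKM in NT cells with DMSO and 177.56 and 122.55 with TPL, and at 158.87 and 174.52 in TAM cells with DMSO and 480.89 and 425.08 with TPL. It rose with TPL in TAM cells by 1.49 (SE 0.149, edgeR adjusted p = 0.000846), the only call with TPL there (0.844% of all genes rose), and had 1.0 (adjusted p = 0.00310) in NT cells, where edgeR called 0 of 12, with 7 at an unadjusted p under 0.05 (47.8% of all genes) and 1 by DESeq2 (13.5%). The call in TAM cells was lost with GAPDH as the reference and with scaling to library size only. All 12, PSMA7 included (0.36 in NT and 0.27 in TAM cells), had a log2 fold change above 0 with TPL in both cell states. The share of all genes above 0 is not given. The medians of the list were 0.81 and 0.73, against 0.09 and 0.05 over all genes.

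C3, the central complement component, was at 158.75 and 180.05 FPKM in NT cells with DMSO and 236.61 and 340.61 with TPL, and at 20.93 and 20.61 in TAM cells with DMSO and 29.08 and 22.78 with TPL. It was lower in TAM than in NT cells, with -3.01 on the log2 scale (SE 0.242, edgeR adjusted p = 0.000889). This was the only call of the list there, where 0.277% of all genes were lower. With TPL in TAM cells its value was 0.27 (SE 0.227, adjusted p = 0.385), so C3 had the low level of CLU in TAM cells without its rise there. CD59, which blocks the terminal complex at the membrane as clusterin does in fluid, had 0.06 and 0.51 with TPL and 1.3 for TAM against NT, and CD46 had 0.88, 0.76 and -0.06.

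Of 13 genes, the apolipoproteins and the CLU paralogue, 8 were tested and edgeR called 0 in each comparison. With TPL, 5 in NT and 4 in TAM cells had an unadjusted p under 0.05, all of them above 0 (23.7% and 21.0% of all genes), and DESeq2 called 1 in each, APOE (4.98% and 4.65%). For TAM against NT 2 had an unadjusted p under 0.05 (19.9% of all genes) and DESeq2 called 0 (4.29%). APOE, a lipid carrier, was at 2.46 and 0.54 FPKM in NT cells with DMSO and 9.69 and 16.06 with TPL, and at 0.48 and 0.62 in TAM cells with DMSO and 7.47 and 9.90 with TPL. Its groups with TPL lay above those with DMSO, with log2 fold changes of 3.17 (SE 0.661, edgeR adjusted p = 0.0109) and 3.95 (SE 0.715, adjusted p = 0.00721). APOL1, APOL2 and APOL6 had 0.92, 0.98 and 0.42 in NT cells and 0.85, 0.40 and 0.37 in TAM cells. The paralogue CLUL1, named for its kinship, stayed between 0.25 and 1.2 FPKM in all 8 libraries.

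Of 12 genes of clusterin receptors and related lipoprotein receptors, 10 were tested, and 1 fell with TPL in NT cells (2.71% of all genes). LRP8, the apolipoprotein E receptor 2, was at 8.48 and 11.08 FPKM in NT cells with DMSO and 1.55 and 0.93 with TPL, and at 10.55 and 9.15 in TAM cells with DMSO and 4.87 and 5.06 with TPL. It fell by 2.95 in NT cells on the log2 scale (SE 0.267, edgeR adjusted p = 0.000554) and had -1.02 (adjusted p = 0.0191) in TAM cells. LRP5 had -0.54 and -0.34, and LRPAP1, a chaperone of these receptors, had 0.61 and 0.59. With TPL in TAM cells edgeR called 0 of 10, DESeq2 called 1 (12.2% of all genes), and 5 had an unadjusted p under 0.05 (45.1%). For TAM against NT edgeR called 0, with 3 at such a p (19.9% of all genes) and 2 by DESeq2 (4.29%).

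Folding and cleavage in the secretory path, which clusterin itself passes through, gave 0 calls by edgeR among 16 genes tested in each of the 3 comparisons. At an unadjusted p under 0.05 there were 3 with TPL in NT cells, 6 in TAM cells and 1 for TAM against NT (47.8%, 45.1% and 19.9% of all genes). DESeq2 called 1, 1 and 0 (13.5%, 12.2% and 4.29% of all genes). CALR (calreticulin) had log2 fold changes of 0.35 and 0.29 with TPL, HSP90B1 (GRP94) 0.21 and 0.51, P4HB (protein disulphide isomerase) 0.24 and 0.17, and CANX (calnexin) 0.13 and 0.34. The list medians were 0.01 and 0.27, against 0.09 and 0.05 over all genes. HSPA5 (BiP), named after its values were seen, had 0.22 and 0.79 (edgeR adjusted p = 0.185 and 0.00388). PCSK5, a proprotein convertase and the member called by DESeq2, had 2.41 and 2.75 (edgeR adjusted p = 0.00477 and 0.00343) at 0.09 to 1.13 FPKM. Of the 16, 9 in NT and 14 in TAM cells had a value above 0. The share of all genes above 0 is not given, so nothing is read from these counts. PDIA4, DNAJB11 and the transcription factor HSF2, named after their peaks were seen, were the members of any list with the peak combination of CLU.

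The last list held 6 transcripts that had been measured by RT-PCR with TPL. The study picked most of them for their response in these cells, so their direction is not independent. The study also measured pre-mRNA of the first intron of CLU by qRT-PCR, and those values were not used here. With TPL, edgeR called 2 of the 6 higher in NT cells and 3 in TAM cells (1.22% and 0.844% of all genes). CRY2, a circadian repressor, and HEXIM1, an inhibitor of P-TEFb, rose in both cell states, by 2.01 and 1.90 on the log2 scale in NT (edgeR adjusted p = 0.000458 and 0.000238) and by 2.14 and 1.96 in TAM cells (adjusted p = 0.000442 and 0.000305). ID2 rose in TAM cells (adjusted p = 0.000284) and was lower in TAM than in NT cells (adjusted p = 0.000852). POLR2A, the largest RNAPII subunit, had 2.39 and 2.50 with TPL, and EPAS1 had 0.91 and 0.63. For TAM against NT the values were -0.39 for CRY2, -0.06 for HEXIM1 and 0.16 for POLR2A, and of the 6 only ID2 was called lower in TAM cells as well as raised with TPL.

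**Figure D5:**
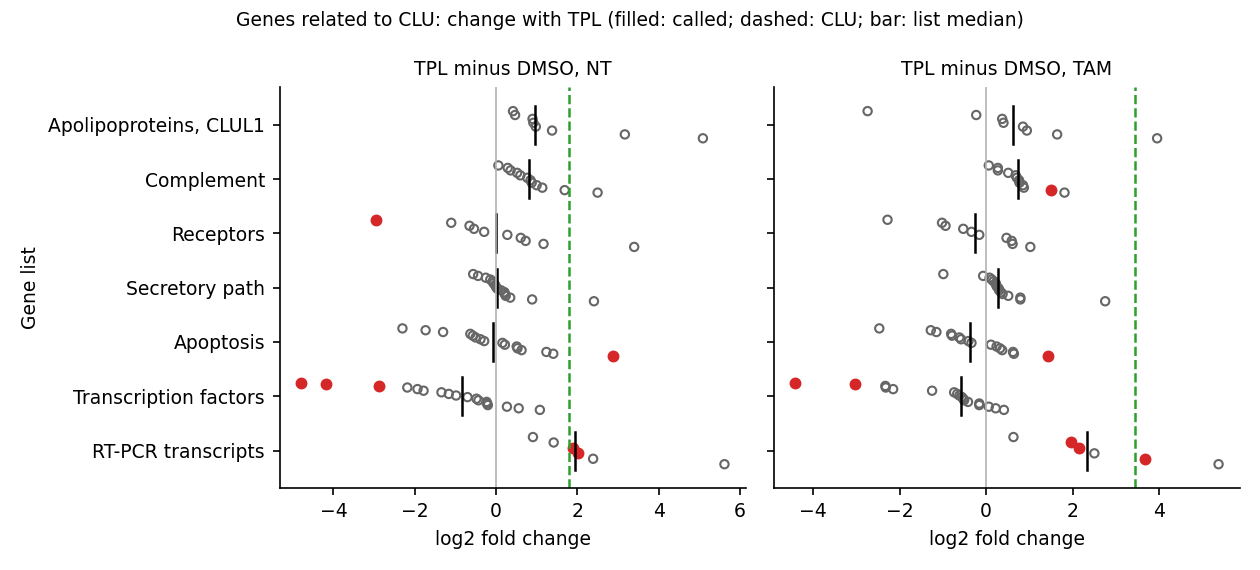
Log2 fold change with TPL (horizontal) of the tested genes of the 7 lists (vertical) in NT (left) and TAM cells (right), each circle 1 gene, filled where called, with a bar at the list median and a dashed line at CLU, 1.79 and 3.43. The transcription factors lie mostly below 0, with medians of -0.84 and -0.59. The genes of the complement list, which holds PSMA7 under the alias C6, all lie above 0.

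Each named call in the lists and among the neighbours lost its side of the threshold in at least 6 of the 8 fits that left out 1 library, while its direction stayed.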

How the data were processed

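Poly-A RNA of MCF10A-Er-Src cells was sequenced in 8 libraries. The deposited expected counts and FPKM were made by the authors, who aligned reads to reference transcripts with Bowtie2 and estimated them with RSEM. RNAPII peaks were called by the authors over input with MACS 1.4.2 on hg19 and deposited as TSS peak lists, whose starts count from 0 and are given here from 1. Genes without reads are left out of the files and were taken as 0.

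Of 23604 entries, 21077 matched a RefSeq symbol by gene ID and 2407 by accession. Where a gene had several entries the one with the highest mean FPKM was used. Rounded expected counts of 16948 genes passing the filter of edgeR 4.0.16 were tested (TMM scaling, factors 0.975 to 1.03, 1 fit of 4 groups, quasi-likelihood test, Benjamini-Hochberg adjustment). A self-test on simulated data was run. Alternatives used limma 3.58.1 and DESeq2 1.42.0. Gene models were from GENCODE v44 lifted to hg19.

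Named were CLU, the tested neighbours, in each list the 4 tested members with the highest mean FPKM and every called member, and the 10 genes with the highest r; a few of these are not reported here. The members and lists were chosen with earlier results of these data known. A search of the CLU promoter for motifs was not run and its sequence was not used here. Per-sample ChIP-Seq signal was not analysed here.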

Additional observations from a re-analysis of the deposited data

How the results depend on the processing

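The log2 fold changes of CLU kept their direction in all alternatives run, and lay from 1.43 to 2.01 for TPL in NT cells, 3.18 to 3.67 for TPL in TAM cells and -4.12 to -3.40 for TAM against NT over those that kept all libraries. With GAPDH as the reference the first was 1.43 and the last -4.12, and the median of all genes shifted to -0.26, -0.07 and -0.50. CLU has 1 entry, so a sum over its entries changed nothing, and a peak within 1 kb of its TSS was again listed in 3 lists. Ranking by Spearman's rho kept 1 of the 10 genes most like CLU, and 6 neighbours lay within 250 kb.

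Counts of calls depended on the tool and the filter, and the cause was not tested. The filter also sets how many genes are tested, so counts under different filters are not shares of the same genes. In the order TPL in NT cells, TPL in TAM cells and TAM against NT, DESeq2 called 922, 860 and 382 genes higher and 1586, 1400 and 353 lower. At least 10 counts in every library gave 437, 378 and 153 higher and 998, 871 and 170 lower, and an adjusted p of 0.05 gave 1658, 1534 and 428 higher and 1918, 1717 and 398 lower. Fitting only the 2 groups compared gave 0, 76 and 38 higher and 0, 201 and 22 lower. GAPDH as the reference gave 99, 77 and 36 higher, and 207 and 73 lower for the last 2, and the upper quartile gave 305 and 210 lower for the first 2. With no filter 521 and 80 genes were lower in the last 2, and limma on log2(FPKM + 1) called 237 higher with TPL in TAM cells and 81 lower in TAM against NT.

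Over all genes, replicate numbers did not pair the libraries (correlations of same-numbered deviations from -0.135 to 0.0501). For CLU, replicate 1 lay above replicate 2 in each group. With the replicate as a block, its SEs for TPL in NT cells, TPL in TAM cells and TAM against NT were 0.157, 0.176 and 0.177. Without the block they were 0.234, 0.262 and 0.264. The replicate block left 0 TPL calls in either cell state, 28 higher and 9 lower for TAM against NT, and 0 of the neighbours and of each list's calls.

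Among neighbours, DESeq2, the adjusted p of 0.05 and at least 10 counts gave 1 call with TPL in TAM cells, as did no filter and fitting 2 groups, and 2, 2 and 1 for TAM against NT. The call with TPL in NT cells went to 0 with DESeq2's size factors in edgeR, library size only, the upper quartile, limma on log2(FPKM + 0.1) and 2 groups. For the lists, in the order apolipoproteins, complement, receptors, secretory path, apoptosis, transcription factors and RT-PCR transcripts, DESeq2 called 1, 1, 1, 1, 5, 6 and 5 with TPL in NT cells, then 1, 1, 1, 1, 3, 6 and 5 with TPL in TAM cells and 0, 4, 2, 0, 1, 4 and 2 for TAM against NT. The adjusted p of 0.05 gave 2, 1, 2, 1, 5, 6 and 5, then 1, 1, 1, 1, 3, 6 and 5, then 0, 4, 2, 0, 1, 3 and 2. At least 10 counts in every library gave 1 complement, 5 apoptosis and 4 RT-PCR calls with TPL in NT cells, 1 receptor, 2 apoptosis and 4 factor calls in TAM cells, and 2 complement, 2 receptor, 1 apoptosis and 1 factor call for TAM against NT. The 2-group fit left 0 calls in NT cells given TPL, 0 complement, 0 apoptosis and 4 factor calls in TAM cells, and 0 RT-PCR calls for TAM against NT. GAPDH as the reference gave 3 apoptosis and 1 RT-PCR call in NT cells, 0 complement and 0 apoptosis calls in TAM cells and 0 RT-PCR calls for TAM against NT. The complement call in TAM cells also went to 0 with library size only and with limma at both pseudocounts. In NT cells the apoptosis list had 3 calls with the upper quartile and 2 with no filter. For TAM against NT limma called 1 apoptosis gene at both pseudocounts and 2 complement genes at a pseudocount of 1. These list counts are given here without the share of all genes called under each setting, so nothing is read from them.

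With 1 library left out in turn, the group then resting on a lone library assumed to vary like the others, CLU gave 1.62 to 1.95, 3.10 to 3.71 and -3.84 to -3.49, with -2.32 to -1.71 for TAM against NT with TPL and 1.3 to 1.91 for the difference of the TPL effects. Genes called ranged from 0 to 74, 0 to 126 and 0 to 66 higher and from 0 to 139, 0 to 412 and 0 to 63 lower. Without either NT library all of these counts were 0, and without either TAM or TAM + TPL library those with TPL were 0. Without NT + TPL replicate 1 or replicate 2, 74 and 8 genes were called higher with TPL in NT cells. In each list the members called ranged from 0 to at most 4, and among the neighbours from 0 to 1. Per list these were 0 to 1 for complement in TAM cells and against NT, 0 to 0 for receptors, 0 to 1 and 0 to 2 for apoptosis, 0 to 2, 0 to 4 and 0 to 1 for factors, and 0 to 1, 0 to 4 and 0 to 0 for RT-PCR transcripts. Each group had 2 libraries and CLU rested on 90 to 116 expected counts in TAM cells, so small differences could not be detected, and the peak lists carry no depth.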

Other observations

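TUFT1 and WBP1 were the other genes, beside ID2, that were by size alone at least 1.2 lower on the log2 scale in TAM cells and higher by at least that with TPL in both cell states at a mean of at least 20 FPKM. TUFT1, which encodes tuftelin, was at 14.84 and 13.97 FPKM in NT cells with DMSO and 45.22 and 59.19 with TPL, and at 5.72 and 6.36 in TAM cells with DMSO and 34.67 and 33.91 with TPL. Its groups did not overlap, and TAM + TPL lay above NT as for ID2. Its log2 fold changes were -1.23 (SE 0.184) for TAM against NT, 1.86 (SE 0.179) for TPL in NT and 2.46 (SE 0.187) for TPL in TAM cells. WBP1, a protein that binds WW domains, was at 12.08 and 15.64 FPKM in NT cells with DMSO and 64.74 and 74.51 with TPL, and at 0.00 and 5.89 in TAM cells with DMSO and 33.37 and 23.08 with TPL. One of its TAM libraries was at 0 and the other was not, and the SE of its log2 fold change with TPL in TAM cells, 3.21, was 0.968. By r with CLU, ID2 was in place 21 (0.951), TUFT1 in place 136 (0.895) and WBP1 in place 171 (0.883).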
